A study of Mus musculus with 6 samples.

Results

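The members are the subunits of the Polycomb complexes, and they were chosen by name from a list of 35 genes that covers the enzymes, readers and partner subunits of both repressive complexes and of the deubiquitinase that removes their mark. Of these, 34 were measured, out of 18193 genes in all. Rybp, a subunit of variant PRC1, was left out because its probe sets also carry the name of a pseudogene. Each gene was read by the probe set (a group of short probes against 1 transcript) with the highest mean over the 6 arrays. All 34 lay above 4.82, the median of all values, which is the limit used here for calling a gene expressed.

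Polycomb proteins keep developmental genes silent. Polycomb repressive complex PRC2 methylates histone H3 on lysine K27 and PRC1 ubiquitinates histone H2A, and each complex can recognise the mark of the other. In mouse embryonic stem cells they sit on the CpG-rich promoters of the transcription factors that drive differentiation, and canonical PRC1 (with a CBX reader) and variant PRC1 (without one) differ in how they get there.

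Expression was measured on 6 Affymetrix Mouse Genome 430 2.0 arrays of mouse embryonic stem cells. The 3 control arrays came from wild-type cells, and the other 3 from cells with Dido3deltaCT, in which the protein Dido3, a product of the gene Dido1, is truncated at its C-terminus. Both groups were grown side by side in medium with leukemia inhibitory factor, the cytokine that keeps such cells self-renewing, and no other treatment is named. The labels call the arrays of a group biological replicates and do not say how many lines or clones stand behind them, so the p-values measure the spread between these cultures, which may all come from 1 line a group. Values are on the log2 scale, as the authors deposited them, and all differences are truncated minus wild type, with the standard error (SE) and the 95% interval from limma. The threshold was an adjusted p of 0.05 (Benjamini-Hochberg, over all genes).

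The cells carried the transcripts of embryonic stem cells: all 10 stem cell markers were expressed, with a mean of 10.99 to 11.23 on the 6 arrays. Wild-type cells had Pou5f1 at 11.15, Nanog at 10.78 and Sox2 at 11.51, and truncated cells had them at 11.44, 11.25 and 11.45, and none passed the test (limma adjusted p = 0.125, 0.0583 and 0.877). None of the 10 passed, but in 8 (80%) the groups did not overlap, 6 higher and 2 lower in truncated cells. The groups did not overlap in 28.8% of expressed genes and 22.4% of all genes. Among those 8 markers, named after their values were seen, Klf4 differed by 0.71, Tdgf1 by −0.46 and Dppa4 by −0.28 (limma adjusted p = 0.0764, 0.183 and 0.283). The part of these differences in the results below was not tested. Of the 5 probe sets of the targeted gene Dido1, the one with the highest mean, 1456405_at, fell by 1.50 and 1437647_at by 1.47 (limma adjusted p = 0.0130 and 0.00106 over all probe sets). Another, 1437182_at, was at 7.14 and 7.82, and the remaining pair differed by 0.05 and 0.03. Where these probe sets lie relative to the deleted part was not analysed here. Wild-type replicate 3 and truncated replicate 2 stood apart, with strong poly-A spike-in controls at 11.1 and 11.4 against 5.79 to 7.32 on the other arrays, and with the lowest means of 20 fibroblast markers, 6.10 and 7.29 against 8.45 to 9.23. Of these 20 markers 19 were expressed, and none of the 20 passed the test. The test could hardly show a change here, since only 1 of the 20 had its interval within 1 log2 unit of 0. The widest interval, that of Col3a1, was −3.37 to 4.36. The median difference of the 20 was −0.59 on the arrays with weak spike-in controls and 1.15 on the strong pair. Equal fibroblast RNA in the groups was therefore not shown. Where arrays with weak and strong spike-in controls are set apart below, they also differed in these markers. Spike-in level and fibroblast RNA cannot be told apart there. Of 14 endoderm and trophoblast markers 8 were expressed and none passed. Their mean of 5.60 to 5.85 on every array averaged differences in both directions. The groups were separate in 5 of the 14 (35.7%), 3 higher and 2 lower, against 28.8% of expressed genes and 22.4% of all genes. Chosen after their values were seen, Krt18 differed by −1.09 and Tfap2c by −1.07 (limma adjusted p = 0.0543 and 0.0927), about as much as the largest difference of any Polycomb gene, and Lama1 by 0.66 and Ascl2 by 0.40 (0.134 and 0.150). Their part in the results was not tested either. Y-linked RNA differed between the groups: Eif2s3y fell by 4.89, Uba1y by 3.09 and Uty by 1.29 (limma adjusted p = 4.76e-05, 0.00390 and 0.0123), while Xist rose by 0.57 (0.0483). Kdm5d, also Y-linked, lay below the expression limit in both groups, at 3.29 and 3.20, and did not pass (limma adjusted p = 0.668). A sign of RNA quality differed too, since the 3' minus 5' signal of beta-actin was 1.07 ± 0.11 for the wild-type arrays against 0.85 ± 0.02 for the truncated ones (SD, n = 3 each; two-sided exact permutation p = 0.1, the smallest that 3 against 3 arrays allow). The truncation, the differences in Y-linked RNA and in Xist, and this ratio cannot be told apart as sources of a difference. This holds for every result below, also for X-linked genes. In bulk RNA, fewer cells with a transcript and less of it in each cell cannot be told apart either.

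Most Polycomb genes differed little between truncated and wild-type cells. Among the 34, 2 rose, the PCGF subunit Bmi1 and the CBX reader Cbx2, 0 fell and 32 did not pass the test. That is 5.88% of the members. Among all 18193 genes 4.67% changed, with 2.70% rising and 1.97% falling, and among expressed genes 6.53% changed, so the members' share was close to that background. The members split evenly by sign, with 17 higher and 17 lower, and their median difference was 0.00, against 0.01 over all genes. The median size of a member's difference was 0.20, against 0.18 over expressed genes. Differences were smaller than 0.5 in 29 of the 34, and in 30 the 95% interval lay within 1 log2 unit of 0. The exceptions were Bmi1, Cbx2, Kdm2b and Asxl1. The 3 values of one group lay wholly above the 3 of the other in 10 members (29.4%), 6 of them higher and 4 lower in truncated cells. Over all genes the groups were separate in 22.4%, and over expressed genes in 28.8%, again near the members' share.

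**Figure D1:**
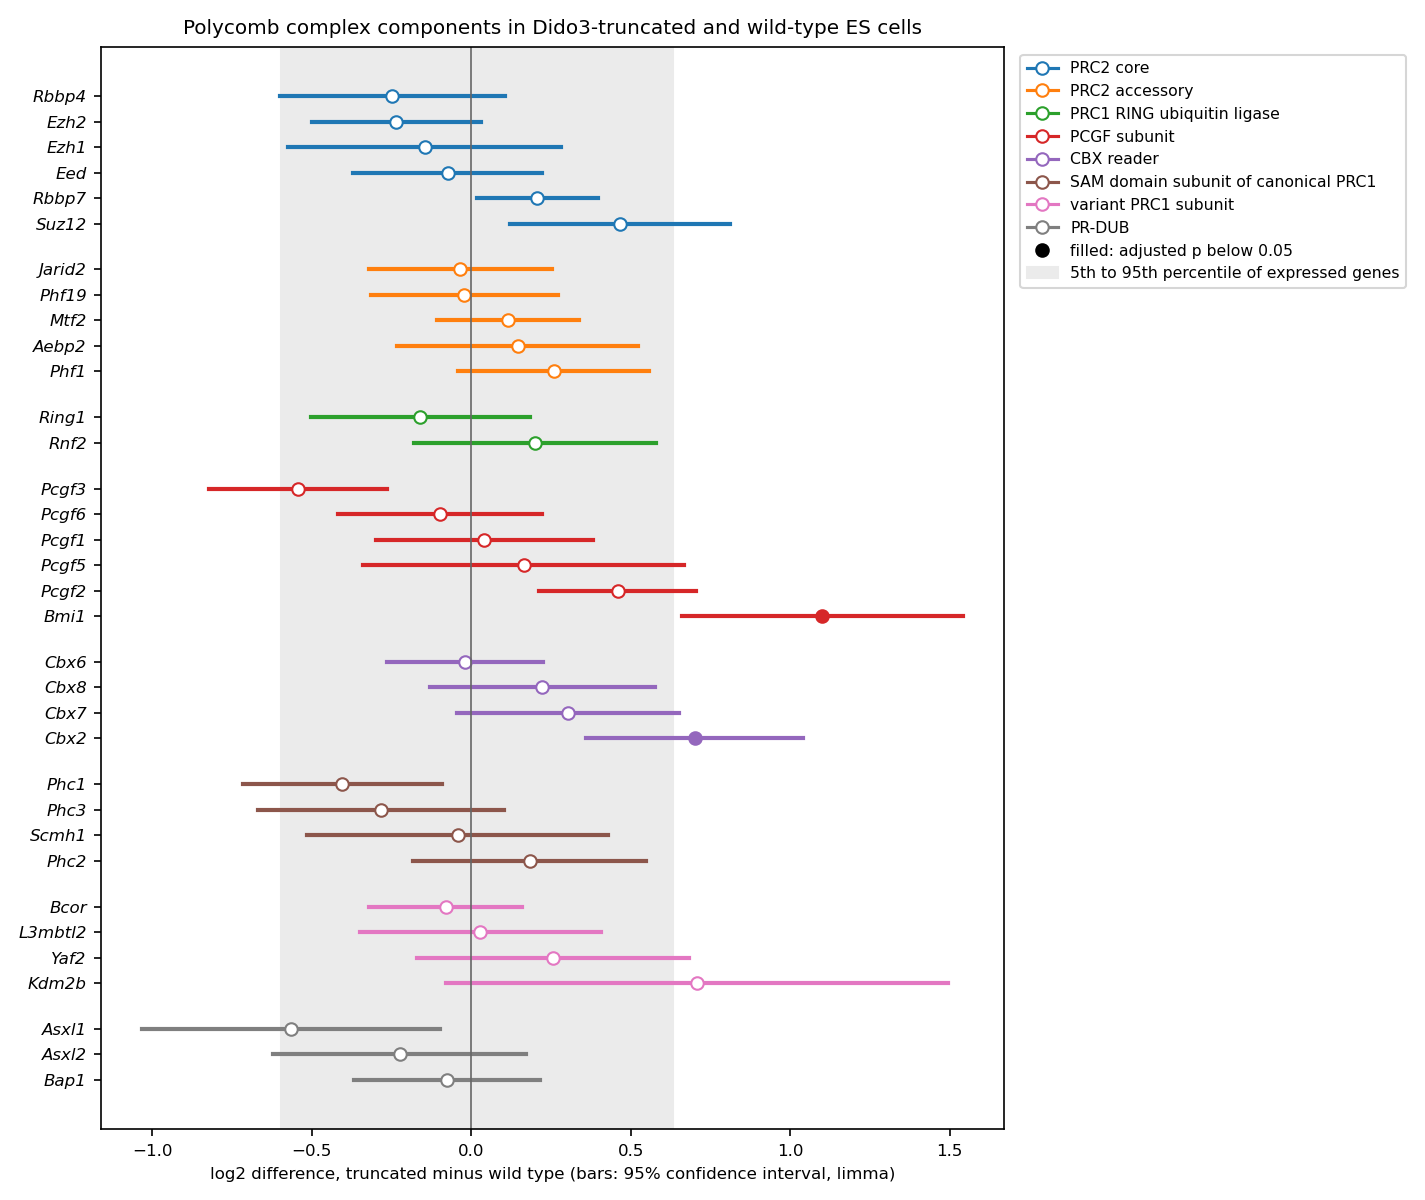
Log2 difference (x axis, truncated minus wild type) of the 34 measured Polycomb genes, grouped by role, each with its 95% interval; the grey band spans the 5th to 95th percentile of expressed genes, -0.60 to 0.63. Bmi1 at 1.10 and Cbx2 at 0.70 are the filled points, and the circles of all members other than Bmi1, Cbx2 and Kdm2b lie inside the band.

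The PCGF subunits showed the widest range of any group of members. Each PRC1 complex holds 1 of 6 PCGF proteins beside its ubiquitin ligase, and which one it holds defines the kind of complex: Bmi1 and Pcgf2 build canonical PRC1, Pcgf1 the complex with Kdm2b and Bcor, Pcgf3 and Pcgf5 related variant complexes, and Pcgf6 the variant with L3mbtl2, Mga and Max. Bmi1 rose from 6.12 ± 0.36 to 7.22 ± 0.12 (SD, n = 3 each), a 2.14-fold increase. Its values were 6.50, 5.77 and 6.10 on wild-type replicates 1 to 3 and 7.09, 7.31 and 7.27 on the truncated ones, so the groups did not overlap and the wild-type arrays were the more spread. The difference was 1.10 (SE 0.19, interval 0.66 to 1.54; limma adjusted p = 0.0254). A second Bmi1 probe set, 1448733_at, was at 4.51 ± 0.55 and 5.40 ± 0.10 (SD, n = 3 each), a difference of 0.89 that did not pass (limma adjusted p = 0.146). On the 4 arrays with weak spike-in signal Bmi1 differed by 1.05, and on the strong pair by 1.21, but on the 4 alone its adjusted p was 0.101. Leaving out wild-type replicate 2 or any 1 truncated array also ended the call, with differences of 0.92 and of 1.05 to 1.17 and limma adjusted p of 0.0661 and of 0.0834 to 0.123. Bmi1 did not pass with the replicate number as a block (0.0623) or in the mean of its probe sets (0.0512).

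The 250 bases before the start of Bmi1 are shown beside those of Pcgf3, the PCGF gene with the lowest difference, because these 2 subunits of different PRC1 complexes moved furthest apart. The sequences are RefSeq's, from assembly GRCm38.p6, written 5′ to 3′ on the strand of the gene, with every CpG in capitals, since unmethylated CpG is what Kdm2b reads. Bmi1 lies at chr2:18676768-18677017 on the plus strand and Pcgf3 at chr5:108461009-108461258 on the plus strand.
Bmi1: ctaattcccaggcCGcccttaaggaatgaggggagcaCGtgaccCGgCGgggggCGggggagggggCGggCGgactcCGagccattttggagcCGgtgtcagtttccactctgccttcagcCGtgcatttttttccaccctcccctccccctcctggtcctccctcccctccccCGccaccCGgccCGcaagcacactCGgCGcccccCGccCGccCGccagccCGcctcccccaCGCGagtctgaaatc
Pcgf3: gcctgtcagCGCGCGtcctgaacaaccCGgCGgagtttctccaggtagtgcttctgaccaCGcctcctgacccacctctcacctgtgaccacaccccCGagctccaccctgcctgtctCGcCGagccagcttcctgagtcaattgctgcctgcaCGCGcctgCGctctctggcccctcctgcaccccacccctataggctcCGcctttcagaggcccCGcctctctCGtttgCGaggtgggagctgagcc
The Bmi1 window holds 21 CpGs and 1 E-box (CACGTG, the same on both strands, with a CpG at its centre), and the Pcgf3 window holds 16 CpGs and 0 E-boxes. The E-box is the site that Max and Mga bind as partners. CpG-rich starts were common to the members: over 44 such windows of the 31 members that the table holds, the median was 20.5 CpGs, against 6 over all 32851 windows. An E-box stood in 8 of the 44 windows (18.2%), against 6.02% of all windows. Over windows with at least 20 CpGs, a limit chosen after the values were seen, it stood in 5 of 24 (20.8%) for the members and in 598 of 5896 (10.1%) of all. Listed partner genes, 31 of 39 in the table, had a median of 20 CpGs and an E-box in 7 of 43 windows (16.3%). Listed target genes, 41 of 60 in the table, had a median of 15 CpGs and an E-box in 5 of 48 (10.4%). The partners thus lay near the members, and nothing here is called particular to the members. The 8 member windows with an E-box belong to Bap1, Bmi1, Cbx6, Cbx8, Pcgf2, Phc2, Phc3 and Rbbp4. Bmi1 is the one of these genes that passed the test. Cbx2 is not in the table.

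Pcgf2, the paralog that shares canonical PRC1 with Bmi1, was also higher in every truncated array, but did not pass. It was at 6.89, 6.99 and 6.71 in wild-type and 7.31, 7.40 and 7.25 in truncated cells, a difference of 0.46 (SE 0.10; limma adjusted p = 0.0590). Pcgf3 differed in the other direction. Its values were 8.29, 8.22 and 8.60 in wild-type cells and 7.85, 7.81 and 7.82 in truncated cells, so the groups were separate and the truncated arrays nearly equal. The difference was −0.54 (SE 0.12) and missed the threshold (limma adjusted p = 0.0524). With the spike-in level as a block both genes passed, Pcgf2 at 0.0480 and Pcgf3 at 0.0304. That block also raised the number of changed genes from 850 to 1569. Over the 16 alternatives run, Pcgf2 passed in 2 and Pcgf3 in 5. The other 3 PCGF genes differed by less than their spread between arrays. Pcgf1 was at 5.89 and 5.93, Pcgf5 at 8.05 and 8.21, and Pcgf6 at 9.69 and 9.59 (limma adjusted p 0.776 to 0.934). Their 95% intervals lay between −0.42 and 0.67.

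Cbx2 was the reader that rose. CBX proteins hold canonical PRC1 on nucleosomes methylated at K27, and Cbx7 is the form best known from embryonic stem cells, while Cbx2, Cbx6 and Cbx8 are other members of the family. Cbx2 was at 6.75, 6.50 and 6.96 in wild-type and 7.40, 7.60 and 7.30 in truncated cells, with no overlap. It rose by 0.70 (SE 0.14, interval 0.36 to 1.04), or 1.62-fold, with a limma adjusted p of 0.0451, close to the threshold. On the 4 weak spike-in arrays Cbx2 differed by 0.73 and on the strong pair by 0.65. Without wild-type replicate 3 it was 0.81 and still passed (adjusted p = 0.0228), but without any other array it did not (0.58 to 0.77, adjusted p 0.104 to 0.168). It also did not pass after subtraction of each array's median (0.0552) or with the replicate number as a block (0.119), and in the mean of both its probe sets it was 0.45 (0.101). The second probe set, 1422059_at, lay below the expression limit in both groups, at 4.23 and 4.44. Cbx7 was at 7.80, 8.28 and 8.29 in wild-type and 8.45, 8.39 and 8.45 in truncated cells, separate groups whose difference of 0.30 did not pass (limma adjusted p = 0.344). Cbx8 differed by 0.22 and Cbx6 by −0.02 (limma adjusted p = 0.521 and 0.958).

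**Figure D2:**
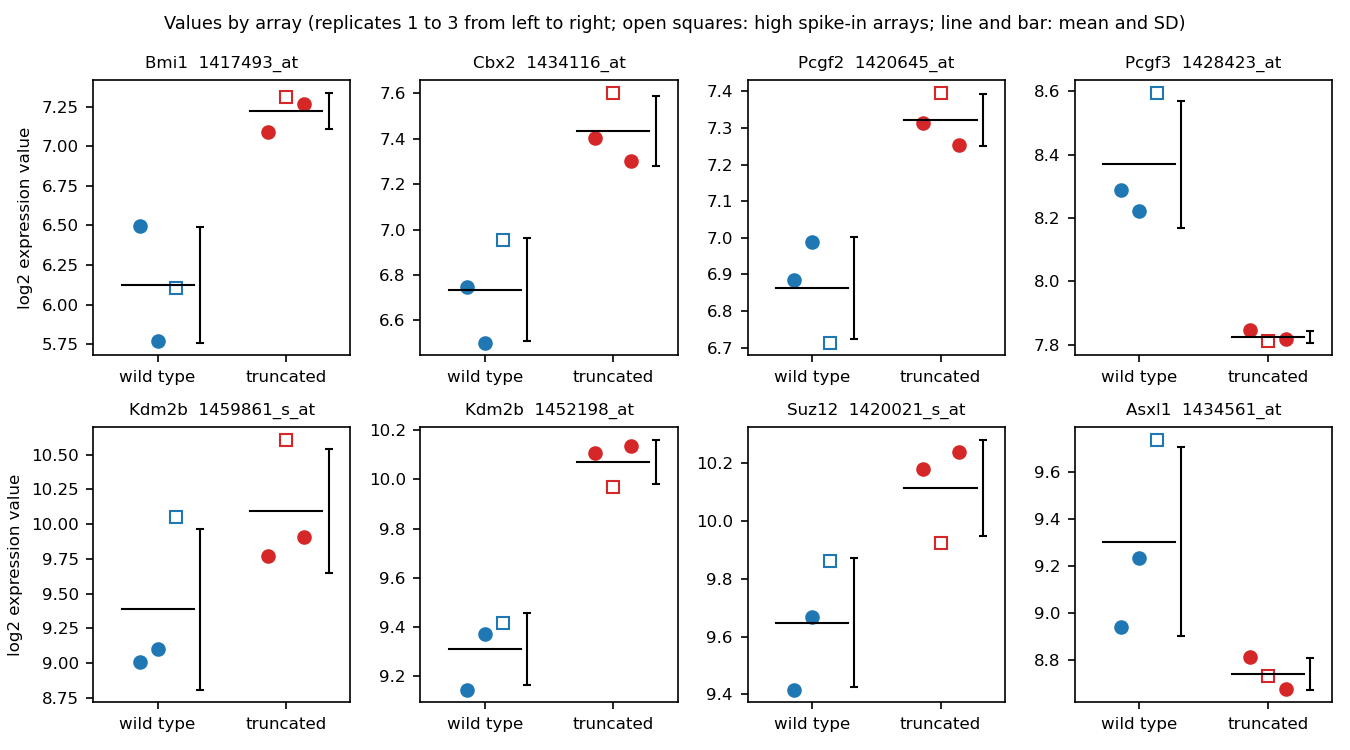
Log2 expression value (y axis) on each array for 8 probe sets of 7 Polycomb genes, replicates 1 to 3 from left to right in each group, with the mean and SD; open squares are the 2 arrays with strong spike-in controls. Bmi1, Cbx2, Pcgf2, Pcgf3, Suz12, Asxl1 and the Kdm2b probe set 1452198_at have separate groups, while in 1459861_s_at the open squares lie highest in each group.

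Kdm2b was read differently by its 2 probe sets. Kdm2b is the CpG-binding subunit that brings variant PRC1 to unmethylated CpG islands. Its representing probe set, 1459861_s_at, was at 9.01, 9.10 and 10.05 in wild-type and 9.77, 10.61 and 9.90 in truncated cells. The highest value of each group came from its strong spike-in array, and the groups overlapped. The difference of 0.71 (SE 0.33, interval −0.08 to 1.50) did not pass (limma adjusted p = 0.325). The other probe set, 1452198_at, was at 9.31 ± 0.15 and 10.07 ± 0.09 (SD, n = 3 each), and rose by 0.76 (SE 0.11; limma adjusted p = 0.0176 over all probe sets). With the spike-in level as a block 1459861_s_at passed too, at an adjusted p of 0.0116, and on the 4 weak spike-in arrays it differed by 0.78 (0.0315). With probe sets that can cross-hybridise left out, 1452198_at stood for the gene and Kdm2b was called (adjusted p = 0.0146). Kdm2b passed in 4 of the 16 alternatives run, with a limma adjusted p of up to 0.598. It passed in 0 of the 6 that left out 1 array. The other variant subunits did not pass. Yaf2, the paralog of Rybp, differed by 0.26 (limma adjusted p = 0.545), the corepressor Bcor, which is X-linked, by −0.08 (0.769) and L3mbtl2, which binds methylated histones in the Pcgf6 complex, by 0.03 (0.963).

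The ubiquitin ligases and the SAM domain subunits did not pass. Rnf2 (Ring1B), the main H2A ligase of embryonic stem cells, was at 9.09 ± 0.10 and 9.29 ± 0.30, and its paralog Ring1 at 6.22 ± 0.27 and 6.06 ± 0.07 (SD, n = 3 each; limma adjusted p = 0.608 and 0.660). Phc1, Phc2, Phc3 and Scmh1 carry the SAM domain through which canonical PRC1 polymerises. Phc1 was at 10.83, 11.27 and 11.17 in wild-type and 10.60, 10.73 and 10.73 in truncated cells. Its groups were separate, and the difference of −0.40 (SE 0.13) did not pass (limma adjusted p = 0.155). Phc3 differed by −0.28, Phc2 by 0.18 and Scmh1 by −0.04 (0.437, 0.627 and 0.951).

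No core subunit of PRC2 passed. Ezh2 and Ezh1 are the methyltransferases, Eed reads the K27 mark and Suz12 holds the complex together, with Rbbp4 and Rbbp7 as histone-binding partners. Ezh2 was at 10.45, 10.57 and 10.39 in wild-type and 10.34, 10.06 and 10.30 in truncated cells, with separate groups and a difference of −0.24 (SE 0.11, interval −0.50 to 0.03; limma adjusted p = 0.331). Ezh1 differed by −0.15 and Eed by −0.07 (0.763 and 0.841). Suz12 was the core gene with the largest difference, at 9.42, 9.67 and 9.86 in wild-type and 10.18, 9.92 and 10.24 in truncated cells. It was higher by 0.47 (SE 0.15, interval 0.12 to 0.81), with no overlap, and did not pass (limma adjusted p = 0.140). All 6 probe sets of Suz12 were expressed and differed upward, by 0.06 to 0.47. The one nearest the threshold, 1452364_at, was at 8.39 ± 0.11 and 8.86 ± 0.11 (SD, n = 3 each; limma adjusted p = 0.0682 over all probe sets). Suz12 differed by 0.67 on the 4 weak spike-in arrays, but by 0.06 on the strong pair. Rbbp7, the other X-linked member, was at 11.92, 11.86 and 11.90 against 12.13, 12.10 and 12.07, a small difference of 0.21 that was well outside the spread of either group but did not pass (limma adjusted p = 0.232). Rbbp4 differed by −0.25 (0.461).

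The accessory subunits of PRC2 differed little, with a median size of 0.11. Jarid2 and Aebp2 define one form of PRC2, and the PCL proteins Phf1, Mtf2 and Phf19 the other. In each of the 5 genes the groups overlapped. Jarid2 was at 11.68 ± 0.20 and 11.65 ± 0.06, Mtf2 at 11.84 ± 0.10 and 11.96 ± 0.07, and Phf19 at 6.06 ± 0.04 and 6.04 ± 0.21 (SD, n = 3 each; limma adjusted p = 0.935, 0.618 and 0.961). Phf1 differed by 0.26 and Aebp2 by 0.15 (0.351 and 0.729). The 95% intervals of the 5 genes lay between −0.32 and 0.56. For Aebp2 the probe sets spread widely, from 0.07 to 0.72, and the largest pair, 1437743_at and 1421021_at, did not pass (limma adjusted p = 0.271 and 0.0786 over all probe sets).

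The 3 genes of the deubiquitinase PR-DUB were all lower in truncated cells, and none passed. Bap1 is its catalytic subunit, which removes ubiquitin from H2A, and Asxl1 or Asxl2 activates it. Asxl1 was at 8.94, 9.23 and 9.74 in wild-type and 8.81, 8.73 and 8.68 in truncated cells. The groups were separate, with the high wild-type value on the strong spike-in array, and the difference of −0.56 (SE 0.20) did not pass (limma adjusted p = 0.184). Asxl1 differed by −0.34 on the 4 weak spike-in arrays and by −1.01 on the strong pair. A second expressed Asxl1 probe set, 1435077_at, was at 8.36 and 8.34. Asxl2 differed by −0.22 in its representing probe set (0.572), but another, 1444754_at, fell from 5.60 ± 0.14 to 4.98 ± 0.06 (SD, n = 3 each; limma adjusted p = 0.0288 over all probe sets). All 4 expressed probe sets of Asxl2 differed downward. Bap1 differed by −0.08 (0.831).

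**Figure D3:**
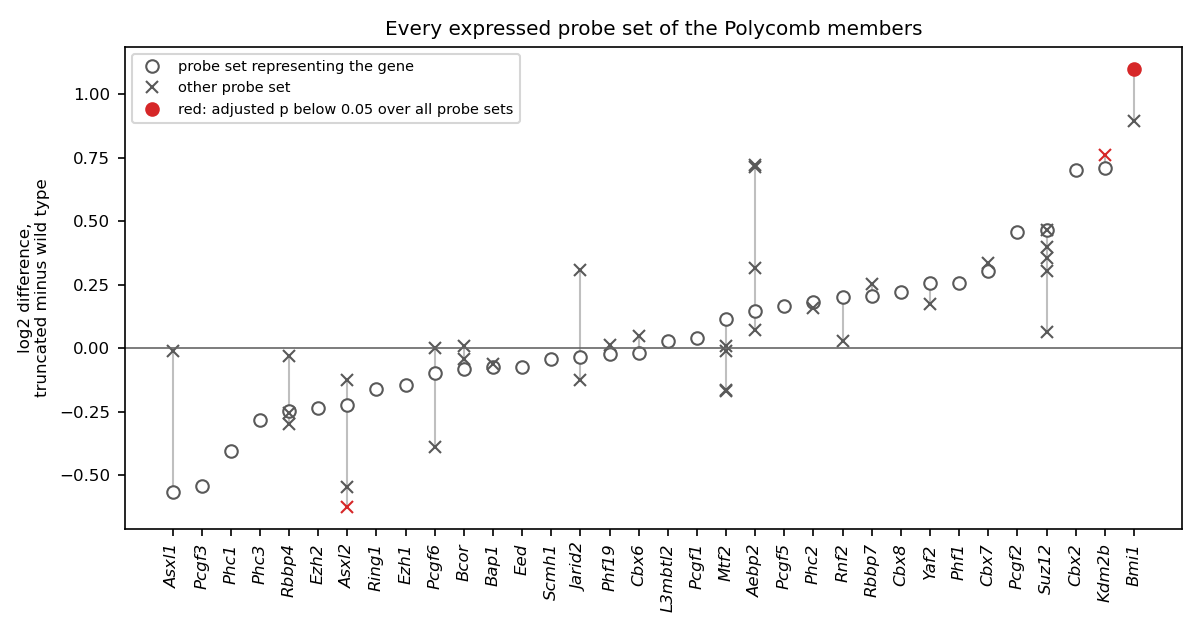
Log2 difference (y axis, truncated minus wild type) of each of the 70 expressed probe sets of the Polycomb genes, ordered by the representing probe set (circles), with other probe sets as crosses. Red marks the 3 that passed over all probe sets, those of Bmi1, Kdm2b (1452198_at) and Asxl2 (1444754_at).

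The 34 genes had 91 probe sets, of which 70 were expressed and 3 passed over all probe sets: 1417493_at of Bmi1, 1452198_at of Kdm2b and 1444754_at of Asxl2. Of all probe sets tested, 2.80% passed. Cbx2, which passed among genes, did not pass here (limma adjusted p = 0.0556). A further expressed probe set was present for 19 members, and in 13 of them every one had the sign of the representing probe set. In 6, Jarid2, Mtf2, Phf19, Pcgf6, Cbx6 and Bcor, at least 1 had the opposite sign, and each of these genes differed by at most 0.11 in size in its representing probe set.

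Paralogs that take the same place in a complex were compared within arrays, as the change in their log2 difference, which shows unequal change and not which gene is the more abundant. Of 9 pairs, 3 had separate groups. Among single expressed genes 28.8% had separate groups, and the share over other gene pairs was not computed. Each of the 3 pairs reached an exact permutation p of 0.1 (two-sided), the smallest possible, or 0.3 after Benjamini-Hochberg adjustment over the 9. None of the 9 could pass in this design. The change was 0.64 for Bmi1 minus Pcgf2, −0.71 for Pcgf3 minus Pcgf5 and −0.46 for Rbbp4 minus Rbbp7. For the other 6, among them Ezh1 with Ezh2 (0.09), Cbx2 with Cbx7 (0.40), Ring1 with Rnf2 (−0.36) and Phc1 with Phc2 (−0.59), the groups overlapped.

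Genes that join or oppose the Polycomb complexes were drawn from a list of 47, of which 42 were measured. Of these, 1 rose, 2 fell and 39 did not pass, a share of 7.14% against 4.67% of all genes and 6.53% of expressed genes, and 37 of the 42 were expressed. The groups were separate in 19 (45.2%), 11 higher and 8 lower, against 22.4% of all genes and 28.8% of expressed genes, and the median difference was 0.09. Scml2, an X-linked relative of Scmh1 that binds PRC1, rose from 4.76, 4.62 and 4.83 to 6.02, 5.57 and 5.82, a difference of 1.07 (SE 0.13; limma adjusted p = 0.00961). Its wild-type mean of 4.74 lay below the expression limit, so the size is against background, and its second probe set, 1456984_at, rose by 1.40 (0.0244 over all probe sets). Leaving out wild-type replicate 2 ended its call (0.0536), as did leaving out the truncated replicates 1 or 3 (0.0545 and 0.0620). Csnk2a2, a casein kinase subunit found with PRC1, fell by 0.47 from 10.41 ± 0.03 to 9.95 ± 0.08 (SD, n = 3 each; limma adjusted p = 0.0346). Its probe sets disagreed: 1460646_at rose from 8.44 ± 0.01 to 9.44 ± 0.16 (0.00686 over all probe sets), while the other 4 expressed ones were lower, by −0.41 to −0.54, and the mean of all gave −0.25 (0.145). Csnk2a2 kept its call without wild-type replicate 3 alone among the 6 arrays left out in turn. Uty, the Y-linked relative of the K27 demethylase Kdm6a, fell by 1.29 with the Y-linked genes above. Epop, Kdm6a and Kdm6b did not pass and were named after their values were seen. Epop, a PRC2 partner in embryonic stem cells, had the largest upward difference of the list. It was at 9.06, 8.99 and 7.94 in wild-type and 9.86, 9.99 and 9.80 in truncated cells, with the lowest value on the strong spike-in wild-type array. The difference of 1.22 (SE 0.29) missed the threshold (limma adjusted p = 0.0680), and was 0.81 on the weak spike-in arrays and 2.05 on the strong pair. Epop passed with the spike-in level as a block, on the weak arrays alone, with the fibroblast covariate and without wild-type replicate 3. Kdm6a itself, which is X-linked, was at 7.70 ± 0.12 and 8.43 ± 0.31 (SD, n = 3 each), and did not pass (limma adjusted p = 0.0594). Kdm6b, the other K27 demethylase, differed by 0.29 (0.245).

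Developmental regulators known as Polycomb targets in embryonic stem cells mostly stayed at low values in both groups. Of 60 listed, 55 were measured and 20 were expressed. Among the 55, 2 rose, 0 fell and 53 did not pass, a share of 3.64% against 4.67% of all genes. The median difference was 0.10, against 0.01 over all genes. Of the 55, 40 (72.7%) were higher and 15 lower, while 51.8% of all genes were higher. Of the 20 expressed targets 15 were higher and 5 lower, while 48.2% of expressed genes were higher. The source of this lean was not tested. The median difference of the 55 was 0.04 on the 4 weak spike-in arrays and 0.18 on the strong pair. Gata3, a transcription factor of the trophectoderm and of T cells, was at 4.27, 3.85 and 3.71 in wild-type and 5.96, 5.68 and 6.12 in truncated cells. It rose by 1.98 (SE 0.18; limma adjusted p = 0.00394) and kept its call in all 16 alternatives run, with an adjusted p of at most 0.0403. Its wild-type mean of 3.94 was below the expression limit, so the size of the rise is against background. Lhx2, a LIM homeobox gene of the forebrain and eye, rose by 0.56 (limma adjusted p = 0.0314), with both group means, 3.33 and 3.89, below the limit, and lost its call without any 1 array other than wild-type replicate 3 (0.0690 to 0.120).

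Gata3 was the target with the largest difference, and the 250 bases before its start are shown for comparison with those of Bmi1 and Pcgf3. They lie at chr2:9878601-9878850 on the minus strand (GRCm38.p6, RefSeq), with every CpG in capitals.
Gata3: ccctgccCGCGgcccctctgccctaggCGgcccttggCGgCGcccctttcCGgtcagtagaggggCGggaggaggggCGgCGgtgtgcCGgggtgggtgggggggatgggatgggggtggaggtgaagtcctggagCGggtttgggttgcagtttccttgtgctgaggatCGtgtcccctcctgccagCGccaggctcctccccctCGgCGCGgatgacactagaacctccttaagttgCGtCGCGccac
The window holds 19 CpGs and 0 E-boxes, beside 21 CpGs for Bmi1 and 16 for Pcgf3.

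**Figure D4:**
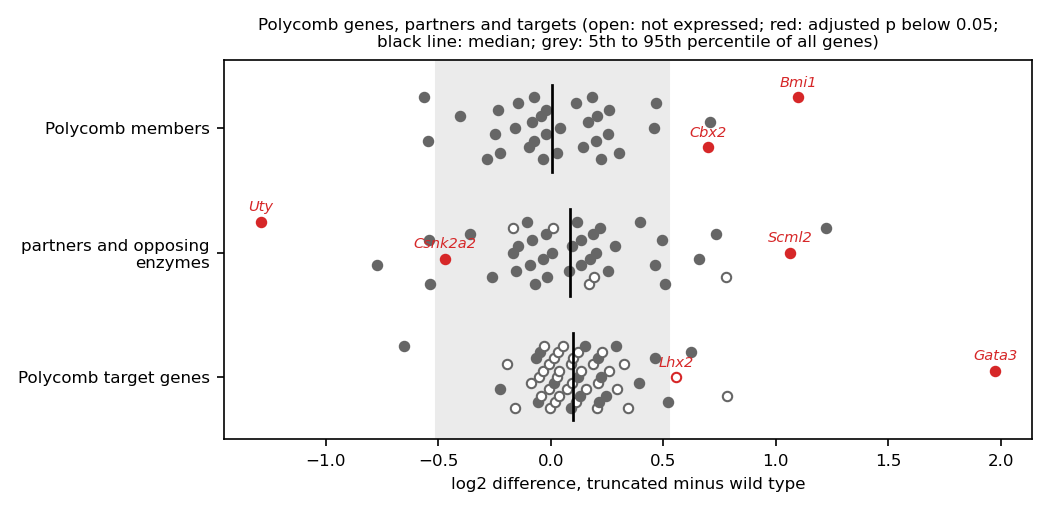
Log2 difference (x axis, truncated minus wild type) of the 34 Polycomb genes, 42 partner and opposing genes and 55 target genes, with the median of each list as a black line; the grey band is the 5th to 95th percentile of all genes, -0.51 to 0.53. Red points passed the test: 2 Polycomb genes, 3 partner or opposing genes and 2 target genes, of which Gata3 at 1.98 lies farthest from 0.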

How the data were processed

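Total RNA was labelled in a single cycle of amplification and hybridised to 6 arrays, per the labels' protocols. The authors deposited log2 expression values per probe set; their summarisation and normalisation are named in no label or header used here. That the scale is log2 was judged from the value range, with array medians of 4.80 to 4.86. The values were used as deposited. No build belongs to them, so coordinates are given only for RefSeq promoter windows.

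Of 45101 probe sets, 64 controls were left out, 34945 of the others had 1 symbol in the platform annotation and 932 had several and were not used for a gene. Symbols were matched through Entrez identifiers to the GRCm38.p6 gene table for 34741 probe sets, and 0 changed. R 4.3.3 and limma 3.58.1 (lmFit, then eBayes) compared the groups over all 18193 genes, or over all 45037 probe sets other than controls, with group as the only term, and the fit was tested on simulated data. Plots used matplotlib 3.10.9 (Python 3.11.15).

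The members, lists and tests were chosen with earlier results of these data known. Named are all members with their probe sets, Dido1, partner and opposing genes past the threshold, up to 8 target genes and 4 genes a marker list past it, and 3 stem cell genes; others are said to be named after their values were seen. Alternatives were 2 other scalings, 2 filters, the mean of all probe sets, another variance model, blocks for replicate number and spike-in level, the 4 weak spike-in arrays alone, a fibroblast covariate and leaving out each array. Strong spike-in arrays exceeded the median array by over 2 log2 units in 27 poly-A controls. The number of arrays limits the precision.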

Additional observations from a re-analysis of the deposited data

How the results depend on the processing

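Between arrays of the same replicate number, deviations from the group means correlated at 0.29 for number 1, −0.36 for number 2 and −0.13 for number 3. The highest value, 0.40, was that of the strong spike-in arrays, wild-type replicate 3 and truncated replicate 2. Deviations from a mean of 3 arrays depend on each other, so these values cannot show whether equal numbers were prepared together. With the replicate number as a block, 466 genes changed, 0 Polycomb genes rose and 1 target gene changed. With the spike-in level as a block 1569 genes changed, 4 Polycomb genes rose (Bmi1, Cbx2, Kdm2b and Pcgf2), 1 fell (Pcgf3) and 6 partner or opposing genes changed. With the fibroblast markers as a covariate these counts were 2013, 4, 2 (Asxl1 and Pcgf3) and 10, with 4 target genes. Subtracting array medians, which moved the median difference of all genes from 0.01 to −0.02, left 1 Polycomb gene risen (Bmi1) and 1 fallen (Pcgf3). Without dim probe sets 1 Polycomb gene fell (Pcgf3) and 1 target gene changed. In the mean of all probe sets 0 Polycomb genes rose and 5 partner or opposing genes changed. Leaving out each array gave 129 to 1191 changed genes, 0 to 2 Polycomb genes risen, 0 to 1 fallen, 0 to 5 partner or opposing genes and 1 to 4 target genes. The highest counts came without wild-type replicate 3, and the number of all changed genes was below 850 without any other array. The cause of these changes was not tested.

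Bmi1 differed by 0.92 to 1.29 and Cbx2 by 0.45 to 0.81 over the 16 alternatives, and they passed in 9 and 8 of them. Among genes that passed in no alternative, the sign of small differences turned. Jarid2 was at 0.31 without probe sets that can cross-hybridise, 0.0487 in the mean of all probe sets and 0.00846 on the 4 weak spike-in arrays; Cbx6 at 0.0476 and 0.0141 in the first 2 of these and 0.00961 after quantile normalization; and Bcor at 0.00845 in the first. In the mean of all probe sets Mtf2 was at −0.0758 and Pcgf5 at −0.00761, and the change of Mtf2 minus Phf19 was −0.0720 and of Asxl1 minus Asxl2 0.23. On the 4 weak spike-in arrays Ezh1 was at 0.0139, Phf19 at 0.10, Pcgf1 at −0.0034 and L3mbtl2 at −0.0774. Leaving out each array gave −0.0594 to 0.18 for Pcgf1, −0.0121 to 0.34 for Pcgf5, −0.27 to 0.10 for Scmh1, −0.15 to 0.0379 for Jarid2, −0.30 to 0.0464 for Ezh1, −0.0637 to 0.0424 for Cbx6, −0.14 to 0.12 for L3mbtl2, −0.15 to 0.0224 for Bap1, −0.13 to 0.0877 for Phf19, and −0.0541 to 0.32 for Ezh1 minus Ezh2. Yaf2 has no value without probe sets that can cross-hybridise, Lhx2 none without dim probe sets, and the paralog pairs were not run under the blocks, the covariate or the other variance model.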
